A study of Rattus norvegicus with 2 samples.

Results

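This report describes 6 genes of dopamine synthesis, storage, uptake and feedback in the hypothalamus of female rats, *Th*, *Ddc*, *Gch1*, *Slc18a2*, *Slc6a3* and *Drd2*. The genes were taken by name from the 32883 genes listed in both libraries, and all 6 were found. Their Ensembl identifiers were ENSRNOG00000020410 (*Th*), ENSRNOG00000004327 (*Ddc*), ENSRNOG00000011039 (*Gch1*), ENSRNOG00000008890 (*Slc18a2*), ENSRNOG00000017302 (*Slc6a3*) and ENSRNOG00000008428 (*Drd2*). The tissue was hypothalamus of Sprague Dawley females on PND 29 (4 weeks of age), taken around the anteroventral periventricular and arcuate areas, and transcripts of single cells were counted by droplet-based 3′ RNA sequencing. SC300 females had carried a Silastic capsule with 300 µg of estradiol benzoate (EB), an esterified estrogen, since PND 0.5. For SC300 capsules the series' design text names the oil vehicle and no estrogen, and the estrogen is taken here from the sample titles and the methods. The sample labels call the Control females intact, whereas the methods describe a capsule with oil vehicle for control rats. Each group was 1 library of tissue pooled from 3 rats, so no measure of variation between rats exists and no test was made. All intervals below are exact 95% intervals that cover counting error only, and a difference between the libraries is a difference between 2 pools. The intervals of levels and ratios treat each count as independent. They leave out which cells happened to be captured, and are too narrow for genes held by few cells.

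Dopamine is made from tyrosine. Tyrosine hydroxylase (TH, gene *Th*) converts tyrosine to L-DOPA in the rate-limiting step and needs the cofactor tetrahydrobiopterin, whose synthesis starts with GTP cyclohydrolase 1 (gene *Gch1*). Aromatic L-amino acid decarboxylase (gene *Ddc*) turns L-DOPA into dopamine, the vesicular monoamine transporter VMAT2 (gene *Slc18a2*) loads it into vesicles, and the dopamine transporter DAT (gene *Slc6a3*) takes it back up after release. The D2 receptor (gene *Drd2*) acts both on target cells and as an autoreceptor. In the hypothalamus, tuberoinfundibular dopamine neurons of the arcuate nucleus restrain prolactin release from the pituitary and are themselves stimulated by prolactin, and other hypothalamic neurons carry TH without the remaining parts of the pathway.

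Neurons were the cells in which at least 4 of 6 neuronal genes (*Snap25*, *Syt1*, *Stmn2*, *Snhg11*, *Celf4* and *Rbfox3*) were detected. These were 380 of 4296 Control cells and 361 of 4379 SC300 cells, 8.85% and 8.24%. The libraries were alike in depth, with 11898534 UMIs in Control neurons and 11908315 in SC300 neurons and a median of 28685.5 and 28871 UMIs per neuron. Mitochondrial genes took a median of 11.6% and 12.9% of their UMIs, and 11 and 13 of the neurons were called doublets. The mitochondrial share was over 20% in 74 Control and 74 SC300 neurons. In the neurons of both libraries together 10914 genes had at least 50 UMIs, and 9.68% of them were more than 1.5-fold apart between the libraries, with 6.99% lower and 2.68% higher in SC300. All 6 genes passed that minimum. *Th*, *Ddc* and *Slc6a3* were more than 1.5-fold lower in SC300 neurons, whereas *Gch1*, *Slc18a2* and *Drd2* were not, and none was more than 1.5-fold higher.

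The 3 genes that were lower in SC300 neurons and *Slc18a2*, which was not, are shown with the 250 bases before their RefSeq transcription start. The sequences are of build GRCr8 and run 5′ to 3′ toward the start. Capitals mark the cyclic AMP response element (CRE, TGACGTCA) or the NBRE (AAAGGTCA), the letters bound by NR4A family receptors such as the product of *Nr4a2*, on either strand. The *Th* window lies at chr1:207508219-207508468 on the minus strand and holds a CRE that begins 69 bases before the start. The *Slc18a2* window lies at chr1:268399771-268400020 on the plus strand and holds a CRE that begins 52 bases before the start. *Ddc* has 3 starts in RefSeq, and the window of the first, at chr14:90682784-90683033 on the minus strand, holds an NBRE on the other strand, 73 bases before the start. The windows of the other *Ddc* starts, not shown, hold neither a CRE nor an NBRE. The *Slc6a3* window, at chr1:31578963-31579212 on the minus strand, holds neither.
Th: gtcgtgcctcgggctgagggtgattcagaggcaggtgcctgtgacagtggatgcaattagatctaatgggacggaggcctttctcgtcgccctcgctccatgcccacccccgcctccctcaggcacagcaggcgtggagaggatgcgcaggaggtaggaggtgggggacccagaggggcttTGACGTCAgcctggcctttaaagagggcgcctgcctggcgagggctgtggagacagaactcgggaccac
Slc18a2: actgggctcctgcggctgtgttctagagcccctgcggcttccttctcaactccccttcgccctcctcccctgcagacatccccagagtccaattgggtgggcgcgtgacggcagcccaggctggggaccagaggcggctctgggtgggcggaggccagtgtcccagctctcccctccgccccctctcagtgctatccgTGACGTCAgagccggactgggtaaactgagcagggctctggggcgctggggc
Ddc, first start: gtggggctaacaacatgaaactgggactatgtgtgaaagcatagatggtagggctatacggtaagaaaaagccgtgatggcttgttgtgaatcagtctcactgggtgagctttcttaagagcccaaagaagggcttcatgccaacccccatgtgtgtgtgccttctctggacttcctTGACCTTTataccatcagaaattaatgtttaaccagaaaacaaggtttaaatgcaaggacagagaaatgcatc
Slc6a3: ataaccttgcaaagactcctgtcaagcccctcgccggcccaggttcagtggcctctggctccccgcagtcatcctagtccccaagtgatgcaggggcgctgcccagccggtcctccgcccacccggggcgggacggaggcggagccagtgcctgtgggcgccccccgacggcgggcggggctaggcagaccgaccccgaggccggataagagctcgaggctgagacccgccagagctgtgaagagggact

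The CRE letters were in 1.59% of 33469 windows of the same length before rat RefSeq starts and the NBRE letters in 1.24%. A CRE thus stood before 1 gene that was lower in SC300 neurons and 1 that was not. The windows of *Gch1* and *Drd2*, not shown, held neither a CRE nor an NBRE. The full estrogen response element (GGTCANNNTGACC) was in 0.0239% of all windows and in none of the 8 windows before these 6 genes. Its part GGTCA, which the NBRE contains, was in 35.4% of all windows. GC content was 64.0% in the *Th* window, 68.0% in that of *Slc18a2* and 44.0% before the first *Ddc* start, against a median of 51.2% over all windows. A letter match is a description of the window and not a binding site, and 3′ counts do not tell which *Ddc* start was used.

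*Th* had 518 UMIs in Control neurons and 202 in SC300 neurons. Levels are given as CPM, the gene's UMIs scaled to a total of 1e6 UMIs over the neurons of a library, with the interval in brackets. Its level was 43.5 CPM (39.9 to 47.5) in Control and 17.0 CPM (14.7 to 19.5) in SC300, or 2.57-fold lower in SC300 (log2 ratio −1.36, −1.60 to −1.12). The share of neurons with *Th* differed less. A *Th* UMI was found in 38 Control neurons (10.0%, 7.17 to 13.5) and in 30 SC300 neurons (8.31%, 5.68 to 11.7). Thinning to 5000 UMIs left out 7 Control and 8 SC300 neurons with fewer. In the other 373 and 353 neurons, thinned to that number, the shares were 5.36% and 5.38%. The background share was far lower: a *Th* UMI was found in 2 of 527 microglia-like cells of Control and 2 of 507 of SC300 (0.380% and 0.394%, median 6632 and 7322 UMIs), as did 3 of 369 and 1 of 460 mature oligodendrocyte-like cells (0.813% and 0.217%, median 19921 and 20831.5 UMIs). The difference lay in the neurons with most *Th*. Of Control neurons 16 held at least 10 *Th* UMIs and the highest held 57, against 6 SC300 neurons and a highest of 29. At least 5 *Th* UMIs were held by 18 Control and 20 SC300 neurons. The median over neurons with a *Th* UMI was 3.5 UMIs in Control and 6 in SC300.

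*Ddc* was detected in more neurons than any of the other 5 genes in both libraries. Control neurons held 683 *Ddc* UMIs (57.4 CPM, 53.2 to 61.9) and SC300 neurons 240 (20.2 CPM, 17.7 to 22.9), which is 2.85-fold lower in SC300 (log2 ratio −1.51, −1.73 to −1.30). A *Ddc* UMI was present in 143 Control neurons (37.6%, 32.7 to 42.7) and 106 SC300 neurons (29.4%, 24.7 to 34.4), and at 5000 UMIs per neuron in 17.96% (14.2 to 22.2) and 11.3% (8.22 to 15.1). Neurons rich in *Ddc* were fewer in SC300. In Control 24 neurons held at least 10 *Ddc* UMIs, up to 32, and in SC300 3 did, up to 12. The 5 neurons with most *Ddc* held 19.9% of its UMIs in Control and 19.6% in SC300, so the signal was spread over many cells.

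*Gch1*, the first enzyme of cofactor synthesis, was at the same level in both libraries. It had 94 UMIs in Control neurons (7.90 CPM, 6.38 to 9.67) and 93 in SC300 neurons (7.81 CPM, 6.30 to 9.57), with a log2 ratio of −0.017 (−0.45 to 0.41). Its UMIs lay in 52 Control and 48 SC300 neurons (13.7% and 13.3%), mostly 1 per neuron. A single Control neuron held 19 of the 94.

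*Slc18a2* had 254 UMIs in Control neurons (21.3 CPM, 18.8 to 24.1) and 230 in SC300 neurons (19.3 CPM, 16.9 to 22.0). The log2 ratio was −0.14 (−0.41 to 0.12). Of these UMIs, 156 and 153 lay in neurons with at most 20% mitochondrial UMIs, with a log2 ratio of −0.024 (−0.35 to 0.31). The *Slc18a2* UMIs of all neurons were concentrated in few cells, 35 in Control and 25 in SC300. The 5 highest neurons held 64.6% and 67.4% of them. Most of these UMIs lay in neurons with a histamine marker. Neurons with at least 2 UMIs of *Hdc*, which encodes the histamine-forming enzyme histidine decarboxylase, numbered 13 in Control and 9 in SC300 and held 184 and 170 of the *Slc18a2* UMIs (72.4% and 73.9%). Those with at least 2 UMIs of both *Slc18a2* and *Th* numbered 9 and 5 and held 41 and 38 *Slc18a2* UMIs (16.1% and 16.5%).

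*Slc6a3* was the rarest of the 6 genes in neurons by number of cells. It had 59 UMIs in Control neurons (4.96 CPM, 3.77 to 6.40) and 9 in SC300 neurons (0.756 CPM, 0.346 to 1.43), which is 6.56-fold lower in SC300 (log2 ratio −2.71, −3.91 to −1.69). These came from 10 Control neurons with 12, 10, 8, 8, 5, 5, 4, 3, 3 and 1 UMIs and from 4 SC300 neurons with 5, 2, 1 and 1. Of the 10914 genes, 70 had a lower log2 ratio than *Slc6a3*, 167 a lower one than *Ddc* and 195 a lower one than *Th*. No *Slc6a3* UMI was found in microglia-like cells, and a limit of 3 counts allows a share of up to 0.569% of 527 Control cells and 0.592% of 507 SC300 cells. This limit concerns cells with a UMI at the depth of these cells, not cells that express the gene, as do the limits given for other counts of 0.

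*Drd2* had 53 UMIs in Control neurons (4.45 CPM, 3.34 to 5.83) and 44 in SC300 neurons (3.69 CPM, 2.68 to 4.96), with a log2 ratio of −0.27 (−0.88 to 0.33). It was found in 27 Control and 26 SC300 neurons (7.11% and 7.20%). The highest Control neuron held 8 *Drd2* UMIs and the highest SC300 neuron 7. In the 369 and 460 mature oligodendrocyte-like cells, the shares with a UMI were 2.17% and 3.70% for *Ddc*, 0.542% and 1.09% for *Gch1* and 0.813% and 0.435% for *Slc18a2*, and 0% for *Drd2*, which allows up to 0.813% and 0.652%. Each of these was below the share in neurons.

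**Figure D1:**
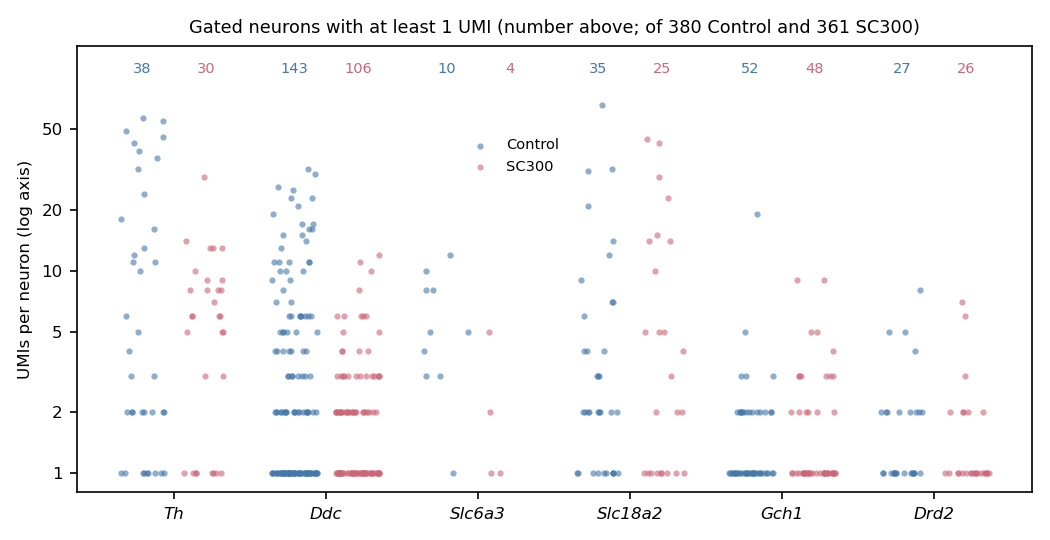
Each point is 1 neuron with at least 1 UMI of the gene on the x axis, placed by its number of UMIs on a log axis, with Control in blue, SC300 in red and the number of such neurons above. The 8 neurons with most *Th*, at 32 to 57 UMIs, are Control neurons, and the highest SC300 neuron lies at 29. *Slc6a3* reaches 12 in Control and 5 in SC300, while *Drd2* reaches 8 and 7.

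The next question was whether these genes were found in the same neurons. Neurons with at least 2 *Th* UMIs numbered 29 in Control and 22 in SC300, with a median depth of 38613 and 42464 UMIs, against 27895 and 28778 UMIs in the 342 and 331 neurons without *Th*. *Ddc* was detected in 22 of the 29 Control *Th* neurons (75.9%, 56.5 to 89.7) and in 33.9% of Control neurons without *Th*. In SC300 it was detected in 14 of 22 (63.6%, 40.7 to 82.8) and in 27.5%. *Slc6a3* was found in few neurons without *Th*, in 9 of 29 Control *Th* neurons (31.0%, 15.3 to 50.8) against 1 of 342 without *Th* (0.292%), and in 4 of 22 SC300 *Th* neurons (18.2%, 5.19 to 40.3) against 0 of 331, which allows a share of up to 0.906%. All 10 Control neurons with *Slc6a3* also held *Ddc* and *Slc18a2*, and all 4 SC300 neurons with *Slc6a3* held *Th* and *Ddc*.

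*Slc18a2* was found in 10 of 29 Control *Th* neurons (34.5%) and in 6.43% of those without *Th*, and in SC300 in 5 of 22 (22.7%) and in 5.74%. *Gch1* was found in 7 of 29 (24.1%, 10.3 to 43.5) and in 12.9% in Control, and in 10 of 22 (45.5%, 24.4 to 67.8) and in 10.9% in SC300. *Drd2* was found in 5 of 29 (17.2%) and in 6.43% in Control, and in 1 of 22 (4.55%) and in 7.25% in SC300. Among *Th* neurons the intervals of the 2 libraries overlapped for each gene. With the neurons of at least 5000 UMIs thinned to that number, 15 Control and 9 SC300 neurons kept at least 2 *Th* UMIs. *Ddc* was found in 12 of the 15 (80.0%) and 4 of the 9 (44.4%), against 15.6% and 10.2% without *Th*. *Gch1* was found in 2 (13.3%) and 0, against 2.55% and 4.49%. *Drd2* was found in 2 (13.3%) and 1 (11.1%), against 3.12% and 1.80%. *Slc18a2* was found in 5 (33.3%) and 1 (11.1%), against 3.68% and 3.89%. *Slc6a3* was found in 4 (26.7%) and 0, against 0% and 0.299%. In SC300 the order of neurons with and without *Th* thus turned for *Gch1*, *Drd2* and *Slc6a3*, on 9 *Th* neurons.

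The *Th* neurons fell into sets by the other genes they held. The limits of these sets were chosen after the values were seen, and the counts describe these cells with no test. The first set held *Ddc* and at least 1 UMI of a transporter, *Slc6a3* or *Slc18a2*, that is, the transcripts of the whole chain from tyrosine to vesicle or uptake. Neurons were placed in it first, and the sets below were drawn from the rest. The first set comprised 10 Control and 6 SC300 neurons. The 10 Control neurons held 57, 55, 49, 46, 43, 39, 36, 24, 18 and 5 *Th* UMIs, with a median of 41. The 6 SC300 neurons held 13, 13, 13, 10, 7 and 5, with a median of 11.5. In UMIs not scaled to depth, every Control neuron of the set except the 1 with 5 lay above every SC300 neuron. Together these neurons accounted for 372 of 518 *Th* UMIs in Control (71.8%) and 61 of 202 in SC300 (30.2%). The same Control neurons held 6 to 32 *Ddc* UMIs each and 193 in all, and the SC300 neurons 3 to 11 each and 41 in all, whereas *Slc18a2* came to 42 and 38 UMIs and *Gch1* to 10 and 17. Outside this set the *Th* count was 146 UMIs in Control and 141 in SC300, which gave −0.063 as the log2 ratio (−0.41 to 0.28).

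Within the set, 6 Control neurons had at least 4 UMIs of *Nr4a2*, a nuclear receptor of midbrain dopamine neurons, and 1 SC300 neuron did. The 6 Control neurons held 7 to 30 *Nr4a2* UMIs, 18 to 57 *Th* UMIs and 6 to 30 *Ddc* UMIs, and *Drd2* was detected in 4 of them. They held 21 to 42 UMIs of *Gad2* and at most 5 of *Gad1*, the genes of the GABA-forming enzymes, and at most 1 UMI of *Prlr*, the prolactin receptor gene. The 1 SC300 neuron held 13 *Th*, 8 *Ddc*, 4 *Nr4a2* and 2 *Drd2* UMIs among only 11940 UMIs, and its mitochondrial share was 45.6%. Scaled to depth, *Th* was 1092 CPM in the 6 Control neurons and 1089 CPM in this neuron, and *Ddc* was 420 and 670 CPM.

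The remaining 4 Control and 5 SC300 neurons of the set differed from these in part of the genes they held, and 1 SC300 neuron was mixed. Each held *Prlr*, with 4 to 5 UMIs in Control and 1 to 13 in SC300, and *Gad1*, with 6 to 27 and 11 to 25. They held no *Drd2*. *Gad2* came to 0 to 1 UMIs per neuron in Control and 0 to 26 in SC300. The SC300 neuron with 26 *Gad2* UMIs held 11 *Gad1*, 1 *Prlr* and 0 *Nr4a2* UMIs. It held 5 of the 8 *Slc6a3* UMIs and 10 of the 33 *Ddc* UMIs of the 5 SC300 neurons. *Th* was 55, 36, 24 and 5 UMIs in the Control neurons and 13, 13, 10, 7 and 5 in the SC300 neurons, or 867 and 183 CPM. *Ddc* was 693 and 126 CPM, and *Slc6a3* 159 and 30.4 CPM. *Slc18a2* was 108 and 133 CPM, and *Pdyn*, the dynorphin precursor gene, came to 7 UMIs in Control (0 to 5 per neuron) and 82 in SC300 (1 to 25 per neuron). One of the 4 Control neurons was called a doublet.

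The second set of *Th* neurons held at least 20 UMIs of *Ghrh*, the growth hormone releasing hormone gene, and comprised 8 Control and 11 SC300 neurons. Their *Th* counts were 32, 12, 11, 10, 4, 3, 2 and 2 in Control and 29, 9, 9, 8, 8, 8, 6, 6, 6, 3 and 3 in SC300, which overlap, and summed to 76 and 95. These made up 14.7% of the *Th* UMIs of Control neurons and 47.0% of those of SC300 neurons. Both transporters were at 0 in all 19 of these neurons, and *Ddc* came to 18 and 10 UMIs. For those with *Ddc* the 0 follows from the order of the sets. Without that order, all neurons with at least 20 *Ghrh* UMIs, 8 in Control and 13 in SC300, also had both transporters at 0. *Ghrh* itself was higher in SC300 neurons (2563 and 7521 UMIs, log2 ratio 1.55, 1.49 to 1.62), with 98.1% and 91.4% of its UMIs in the 8 and 11 neurons. A further 4 Control and 2 SC300 *Th* neurons held at least 20 *Sst* UMIs (somatostatin), with 31 and 19 *Th* UMIs, and 7 and 3 fell into no set, with 30 and 19.

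**Figure D2:**
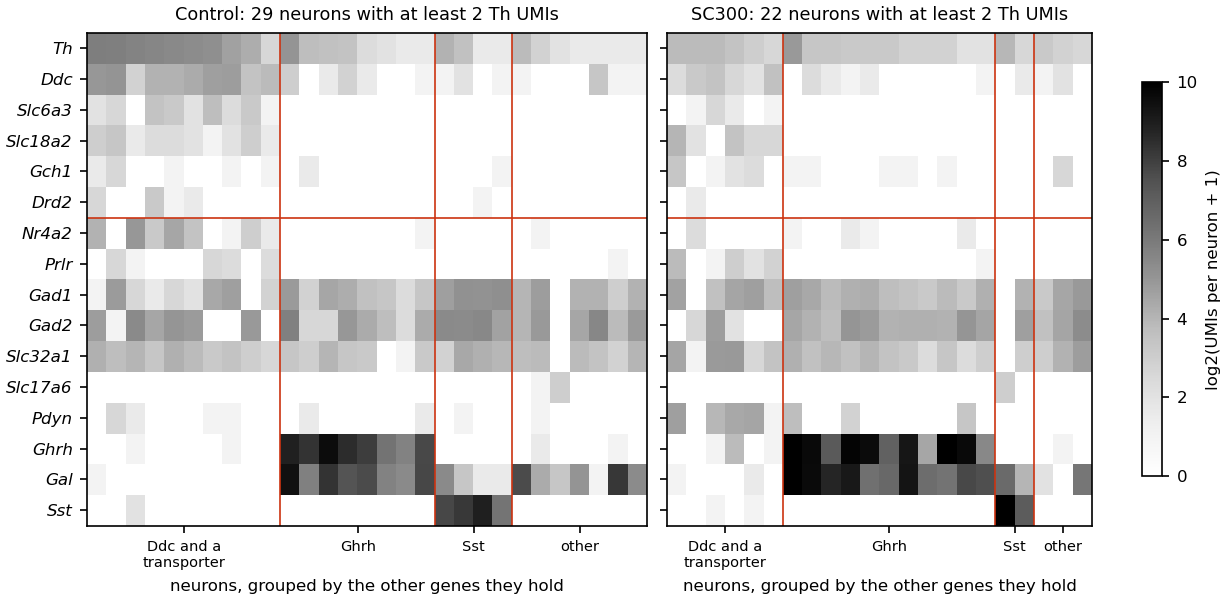
Each column is 1 neuron with at least 2 *Th* UMIs, 29 in Control and 22 in SC300, each row a gene, and the grey level log2(UMIs per neuron + 1). Red lines part the 4 sets and the 6 genes of the pathway from the other genes. The sets are defined by genes shown here, the first by *Ddc* with *Slc6a3* or *Slc18a2* and the second by *Ghrh*. In the first set the *Th* row is darker in the Control neurons.

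*Ddc* was lower in SC300 neurons both with and without *Th*. The neurons with at least 2 *Th* UMIs held 228 Control and 57 SC300 *Ddc* UMIs, or 33.4% and 23.8% of the total. Neurons with 0 *Th* UMIs held 433 and 179, or 41.9 and 16.6 CPM. Among the latter, 28 Control neurons had at least 5 *Ddc* UMIs, up to 23, and 7 SC300 neurons did, up to 12. Leaving out the neurons with *Th*, *Ddc* and a transporter gave a log2 ratio of −1.31 (−1.56 to −1.07) for *Ddc*.

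*Ddc* was found in several kinds of neuron, and the counts that follow include their *Th* neurons. Neurons with at least 20 *Gad2* UMIs, 119 in Control and 76 in SC300, held 367 and 45 *Ddc* UMIs (88.6 and 15.8 CPM). At the same limit *Ddc* was 68.8 and 18.5 CPM in *Gad1* neurons, 32.1 and 25.4 CPM in *Slc32a1* neurons and 16.0 and 19.9 CPM in *Sst* neurons. The neurons with at least 20 UMIs of *Agrp*, the gene of an appetite-stimulating peptide, held 41 *Ddc* UMIs in Control (16 of 18 neurons) and 31 in SC300 (11 of 15), so that their *Ddc* level was 69.7 and 78.5 CPM. GABAergic neurons rich in *Avp*, the vasopressin gene, were picked out after their values were seen. With at least 100 *Avp* UMIs and a UMI of *Slc32a1* there were 8 Control neurons, holding 15, 14, 11, 9, 8, 4, 4 and 0 *Ddc* UMIs, and 2 SC300 neurons, holding 1 and 0. None of these 10 neurons held *Th*. Without all neurons of at least 100 *Avp* UMIs the log2 ratio of *Ddc* was −1.36 (−1.58 to −1.14).

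**Figure D3:**
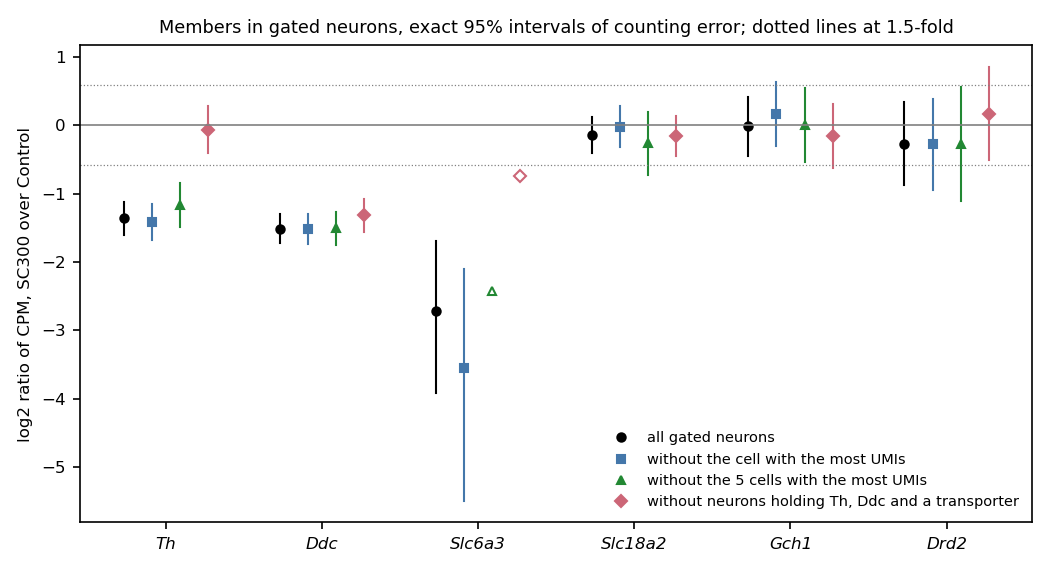
The y axis is the log2 ratio of CPM, SC300 over Control, of each gene in all neurons and without the neuron or the 5 neurons with most UMIs of that gene or without those with *Th*, *Ddc* and a transporter. Bars are exact intervals, and open symbols without a bar are bounds, the SC300 count being 0 and set to the floor of 3 UMIs. *Th* moves from −1.36 to −0.063 without the last group, and *Ddc* stays between −1.52 and −1.31. The last group is defined by UMIs of *Th*, *Ddc* and the transporters, so leaving it out removes their UMIs by construction.

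The transmitter genes divided the 6 genes further. Neurons with *Slc32a1*, the vesicular GABA transporter gene, and no *Slc17a6*, a vesicular glutamate transporter gene, numbered 216 in Control and 191 in SC300. In these lay 96.9% of *Th* UMIs in Control and 92.6% in SC300, 91.5% and 100% of the *Slc6a3* UMIs, and 85.5% and 61.7% of the *Ddc* UMIs. Their *Ddc* level was 92.6 CPM (85.2 to 100.4) in Control and 26.9 CPM (22.8 to 31.6) in SC300. In neurons with *Slc17a6* and no *Slc32a1* (119 and 133) *Ddc* was 21.1 CPM (16.9 to 26.0) and 13.1 CPM (10.1 to 16.6). *Drd2* was more evenly divided, with 37.7% and 56.8% of its UMIs in the former neurons and 58.5% and 43.2% in the latter. *Slc18a2* lay mainly in the 31 and 26 neurons with neither gene, which held 64.2% and 63.9% of its UMIs.

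Outside neurons the genes parted ways. Neurons held 95.9% of all *Th* UMIs in Control and 91.8% in SC300, and 94.1% and 92.4% of all *Slc18a2* UMIs. Of *Slc6a3* they held 93.7% of 63 UMIs in Control and 60% of 15 in SC300. The other 3916 and 4018 cells held 22 and 18 *Th* UMIs, 4 and 6 *Slc6a3* UMIs and 16 and 19 *Slc18a2* UMIs. A single SC300 cell of a cluster led by *Nts*, *Snhg11* and *Kifc2* held 4 of those *Slc6a3* UMIs. In the cells of this cluster outside the gate, 74 in Control and 72 in SC300, *Th* was 4.15 and 13.5 CPM. *Slc18a2* was 6.22 and 15.8 CPM there. With at least 3 of the 6 neuronal genes required, the *Slc6a3* log2 ratio was −2.29 (−3.28 to −1.41). Of *Ddc*, by contrast, the neuronal part was 39.9% in Control and 19.6% in SC300, and of *Gch1* 16.6% and 19.4%.

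*Ddc* was highest in the 2 vessel-related classes. Endothelial cell-like clusters held 464 *Ddc* UMIs in Control (194 CPM, 177 to 213) and 372 in SC300 (161 CPM, 145 to 178), in 180 of 319 and 152 of 275 cells. Mural cell-like clusters held 361 (143 CPM, 128 to 158) and 414 (120 CPM, 108 to 132), in 95 of 164 and 115 of 173 cells. The log2 ratio was −0.27 (−0.47 to −0.073) in the former and −0.26 (−0.46 to −0.048) in the latter, and −0.23 (−0.36 to −0.11) over all cells that were not neurons, against −1.51 in neurons. The 22 Control and 21 SC300 cells of neuron-like clusters outside the neuron gate held 13 and 20 *Ddc* UMIs (60.6 and 63.5 CPM), and erythroid-like cells 46.5 and 51.8 CPM. Astrocyte-like cells (7 and 4 UMIs) and microglia-like cells (4 and 2 UMIs) were close to 0.

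The 4 endothelial genes measured here (*Cldn5*, *Flt1*, *Slco1c1* and *Itm2a*) summed to 14094 and 13839 CPM in endothelial cell-like clusters, to 10153 and 10088 CPM in mural cell-like clusters and to 3407 and 4091 CPM in erythroid-like cells. For every 100 UMIs of them there were 1.16 to 1.41 *Ddc* UMIs in each of these 3 classes and both libraries. Neurons held 74.0 and 45.9 CPM of the same 4 genes, none of them at 0, and 77.6 and 44.0 *Ddc* UMIs for every 100 of theirs. The sums of mural, microglial and erythroid genes in neurons were 29.5 and 25.4 CPM, 42.7 and 34.2 CPM, and 302 and 197 CPM. The number of *Ddc* UMIs for every 100 endothelial UMIs was higher in neurons than in these 3 classes in both libraries. The part of RNA from vessel cells in the *Ddc* counts of neurons, mural cell-like and erythroid-like cells was not tested.

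*Gch1* was highest in microglia-like cells, with 231 UMIs in Control (64.5 CPM, 56.4 to 73.3) and 211 in SC300 (57.6 CPM, 50.1 to 65.9), in 133 of 527 and 126 of 507 cells. The log2 ratio there was −0.16 (−0.44 to 0.11). Erythroid-like cells held 117 *Gch1* UMIs (53.3 CPM, 44.1 to 63.9) in Control and 54 (28.8 CPM, 21.7 to 37.6) in SC300, with a log2 ratio of −0.89 (−1.38 to −0.41). The 6 microglial genes summed to 287 CPM in the Control and 47.0 CPM in the SC300 erythroid-like cells, against 16023 and 16354 CPM in microglia-like cells. For every 100 UMIs of these genes there were 18.6 and 61.4 *Gch1* UMIs in erythroid-like cells, against 0.402 and 0.352 in microglia-like cells. The part of microglial RNA in the *Gch1* difference of erythroid-like cells was not tested. Endothelial cell-like and mural cell-like clusters had *Gch1* between 13.6 and 22.2 CPM.

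**Figure D4:**
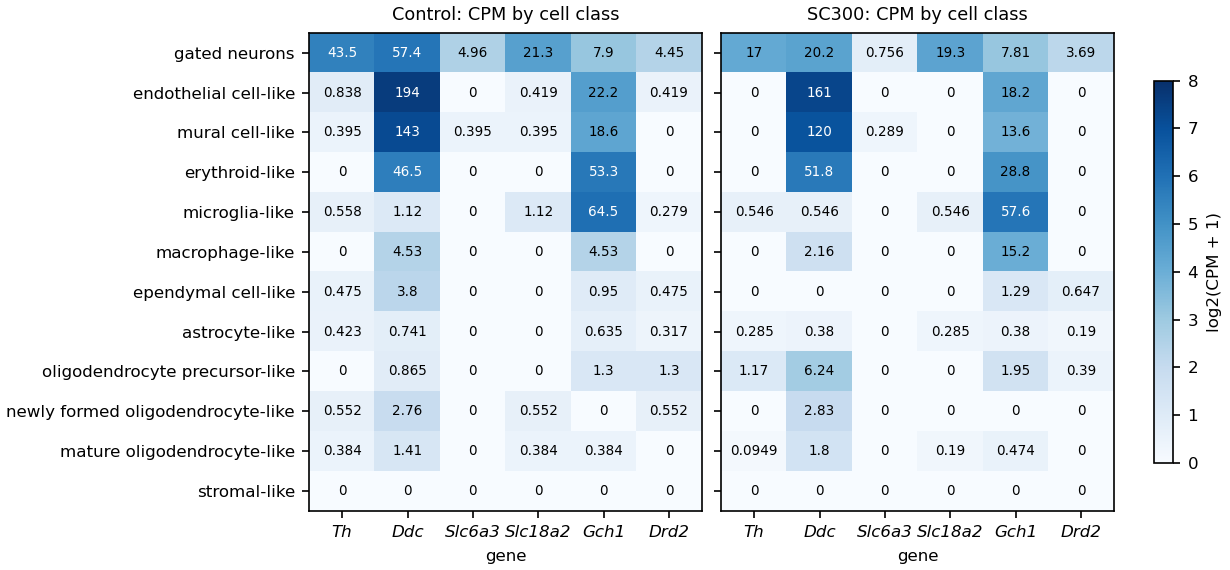
Colour is log2(CPM + 1) and the printed number is CPM of each gene (columns) in neurons and in the named non-neuronal classes without the gated neurons (rows), Control left and SC300 right. *Th*, *Slc6a3*, *Slc18a2* and *Drd2* are near 0 in these non-neuronal classes, while *Ddc* reaches 194 and 161 CPM in endothelial cell-like clusters and *Gch1* 64.5 and 57.6 CPM in microglia-like cells. Unnamed clusters are not shown.

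The pathway lists are read against the 6.99% of all 10914 genes that were more than 1.5-fold lower and the 2.68% that were more than 1.5-fold higher in SC300 neurons, and in lists of this size a count of 0 or 1 is near that background. The 8 genes of tetrahydrobiopterin synthesis and recycling, *Gch1* included, had 0 members more than 1.5-fold lower and 0 higher in SC300 neurons, with a median log2 ratio of −0.053 against −0.066 over all 10914 genes. Sepiapterin reductase (*Spr*, 301 and 337 UMIs) and dihydropteridine reductase (*Qdpr*, 1515 and 1285 UMIs) had log2 ratios of 0.16 (−0.067 to 0.39) and −0.24 (−0.35 to −0.13). Of 7 genes of monoamine breakdown, 0 were higher and 0 lower, with a median of −0.20. Monoamine oxidase genes were within 1.5-fold, with 173 and 118 UMIs for *Maoa* (−0.55, −0.90 to −0.21) and 1063 and 1005 for *Maob*.

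Markers of other monoamine neurons were scarce except for histamine. *Dbh*, of noradrenaline synthesis, and *Slc6a2*, the noradrenaline transporter gene, had 0 UMIs in all kept cells of both libraries, and *Tph2*, of serotonin synthesis, had 10 and 7. *Hdc* had 688 UMIs in Control neurons and 554 in SC300 neurons (−0.31, −0.48 to −0.15). Of the 4 genes of this list with at least 50 UMIs, *Slc22a3*, an extraneuronal monoamine transporter gene, was higher in SC300 (23 and 49 UMIs, 1.09, 0.35 to 1.87) and none was lower. *Drd2* was the single dopamine receptor gene with at least 50 UMIs, and *Drd1* had 10 and 14.

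Among 10 genes of dopamine receptor signalling, *Ppp1r1b*, whose product DARPP-32 is a target of dopamine signalling, was lower in SC300 with 294 and 93 UMIs (−1.66, −2.01 to −1.32), and 0 were higher. *Ppp1r1b* was also among the 10 leading genes of an unnamed cluster led by *Ces1d*, *Crym* and *Tagln*, with 317 Control and 191 SC300 cells, of which 5 were gated neurons, and the part of these cells in the difference was not tested. Of 7 transcription factors of dopamine or GABA neurons, 2 were lower and 1 was higher, with a median of −0.17. *Nr4a2* had 340 and 108 UMIs (−1.66, −1.98 to −1.34) and *Onecut2* 39 and 11 (−1.83, −2.94 to −0.83), whereas *Meis2* had 17 and 51 (1.58, 0.77 to 2.47). *Isl1* was alike, with 1081 and 1082 UMIs. The neurons with at least 2 *Nr4a2* UMIs, 37 in Control and 14 in SC300, held 259 and 24 of the *Th* UMIs and 156 and 19 of the *Ddc* UMIs.

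Of 10 genes through which hormones act on these neurons, 1 was lower and 1 was higher, with a median of 0.22. *Esr1*, the estrogen receptor α gene, had 108 and 52 UMIs (−1.06, −1.56 to −0.57). *Prlr* had 126 and 198 (0.65, 0.32 to 0.98). *Pgr*, the progesterone receptor gene, had 10 and 33 UMIs, fewer than 50 in all. Of 19 partner transmitters and peptides, 5 were lower (*Trh*, *Tac3*, *Kiss1*, *Crh* and *Npy*) and 4 were higher (*Ghrh*, *Nts*, *Cartpt* and *Pdyn*). The lowest was *Trh*, with 3084 and 481 UMIs (−2.68, −2.82 to −2.54). *Gad1*, *Gad2*, *Slc32a1* and *Slc17a6* were within 1.5-fold, with log2 ratios of −0.081, −0.45, −0.24 and 0.22, so the genes that mark GABA and glutamate neurons differed less than *Th*, *Ddc* and *Slc6a3*.

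**Figure D5:**
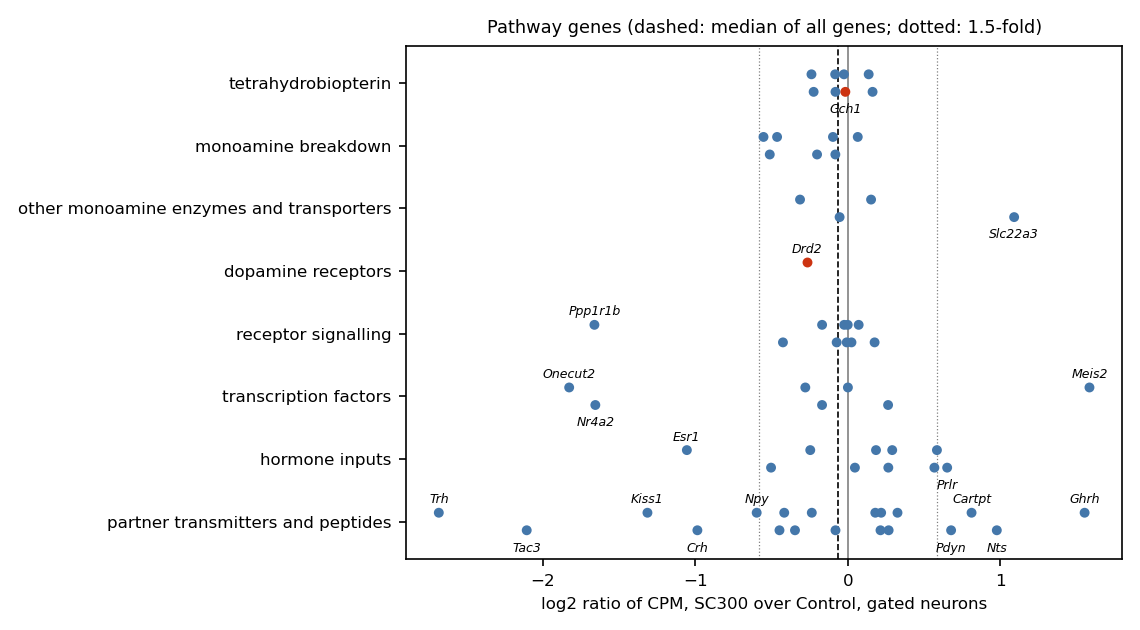
Each point is a gene with at least 50 UMIs in neurons, placed by its log2 ratio of CPM, SC300 over Control, in rows by list, with *Gch1* and *Drd2* in red and genes beyond 1.5-fold named. All 8 tetrahydrobiopterin genes lie between the dotted lines, and *Ppp1r1b*, *Onecut2* and *Nr4a2* lie at −1.66 or below.

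Genes with a pattern most like that of *Th* were ranked by their level in neurons with at least 2 *Th* UMIs over neurons with none, taking the lower of the 2 libraries' log2 ratios, among 9004 genes. *Ghrh* came first (9.03 in Control and 9.46 in SC300) and *Slc6a3* second (6.42 and 6.93). *Slc18a3*, the vesicular acetylcholine transporter gene, came next (3.81 and 5.03), with 26 UMIs in the 29 Control *Th* neurons against 17 in the 342 without *Th*, and 42 in the 22 SC300 *Th* neurons against 15 in the 331 without. *Adgrg6*, *Mdfic*, *Adamtsl3*, *Slc9a2*, *Cldn1*, *Adgrg2*, *Sdc1*, *Frem3* and *LOC684871* followed, with lower values between 2.61 and 3.00. Several of these rested on few UMIs. In the Control and SC300 *Th* neurons *Slc9a2* had 5 and 3 UMIs, *Cldn1* 4 and 3, *Sdc1* 4 and 7 and *Adgrg6* 5 and 17. Over the 24 clusters of both libraries, the genes with the highest Pearson correlation of log2(CPM + 1) to *Th* were *Trh*, *P2rx2* and *Agrp* (r = 0.95 to 0.96), and those closest to *Gch1* were *Ucp2*, *Lyl1* and *Procr* (r = 0.81 to 0.86). *Slc18a2* was closest to *P2rx2*, *Th* and *Trh*, *Slc6a3* to *Gpr101*, *Rxfp1* and *Crhr2*, *Drd2* to *Gpr6*, *Bdnf* and *Ptchd4*, and *Ddc* to *LOC103690141*, *Tbx3* and *Cacnb2*. Clusters share libraries and differ in depth, so these coefficients describe the order of clusters only. They do not show that 2 genes lie in the same neurons. The 17 Control and 8 SC300 neurons with at least 20 *Trh* UMIs held 0 and 1 *Th* UMIs. Those with at least 20 *Agrp* UMIs, 18 and 15, held 4 and 6.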

How the data were processed

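Cells of 1 Control and 1 SC300 library were grouped by the sample labels. The authors aligned reads to the Ensembl release 96 rat transcriptome, called cells and deposited whole UMI counts per gene and cell, without normalization, using Cell Ranger (the file headers and processing notes name version 3.0.1, the methods a later one for demultiplexing). The genome build is not given in the sources used here, and the effect of a merging step named in the methods on the counts is not stated. The files hold 4488 Control and 4524 SC300 barcodes (52004789 and 57013099 UMIs), the numbers the methods give as analysed, although the methods also give smaller totals. Both libraries list 9 barcodes in common, 7 of them among kept cells.

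Cells with at least 200 genes were kept. Doublets were called with Scrublet in scanpy 1.11.5 (70 and 71 cells, 1.63% and 1.62%) and kept. Both libraries were clustered together with Seurat 5.3.0 in R 4.3.3 on 1956 of 2000 variable genes, leaving out the 6 genes and their pathway lists, and gave 24 clusters. A class was named where 3 of its markers reached 10 CPM and stood 2-fold over the other clusters, and names are rebuilt and need not match those of the study. Gated neurons were removed from the other classes. UMIs were summed and scaled to CPM with Python 3.11.15, numpy 2.4.6, pandas 2.3.3 and scipy 1.17.1. Exact 95% intervals were Clopper-Pearson for shares, Poisson for CPM and, for a ratio of CPM, binomial given the sum of both counts. A count of 0 was set to a floor of 3 UMIs to bound a ratio. Genes most like *Th* were the 12 with the highest lower ratio in *Th* neurons over others, and 3 per gene were named by correlation over clusters. The calculation of the ratios was tested on simulated counts. Upstream sequences came from RefSeq (GRCr8), where all 6 genes were matched.

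The 6 genes, the marker and pathway lists and the tests were chosen with earlier results of these data known. Dlx6 and Onecut3 were not listed by that name, and proteins were not analysed here. A further 3 genes of the pathway lists are not reported here.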

Additional observations from a re-analysis of the deposited data

How the results depend on the processing

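No paired analysis was possible because each group is 1 library and the groups share a single replicate number. For the same reason no library could be left out. Over 15 alternatives per gene, of which 5 were added after the data were seen, the log2 ratio of CPM in neurons, SC300 over Control, ranged from −1.56 to −0.063 for *Th*, from −1.78 to −1.29 for *Ddc*, from −3.55 to −0.75 for *Slc6a3*, from −0.33 to 0.18 for *Slc18a2*, from −0.38 to 0.39 for *Gch1* and from −0.47 to 0.52 for *Drd2*. *Th* and *Slc6a3* were below −1 in 14 of the 15 and *Ddc* in 15. Of 90 such values 83 stayed within the counting interval of the main value. Several alternatives change few counts, and the interval is wide for genes of few UMIs, such as *Slc6a3* (−3.91 to −1.69). The number 83 therefore does not tell how firm a ratio is. Leaving out the neurons with *Th*, *Ddc* and a transporter gave −0.063 for *Th* and a bound of −0.75 for *Slc6a3*, whose SC300 count was then 0. These neurons are defined by the UMIs of those same genes and held 54 of the 59 Control *Slc6a3* UMIs. The bound rests on 5 Control UMIs and cannot tell how firm the *Slc6a3* ratio is. Among the other alternatives the highest value was −2.29 for *Slc6a3* and −1.10 for *Th*. Weighting every neuron alike gave −1.10 for *Th* and −1.29 for *Ddc*. Neurons with *Slc32a1* and no *Slc17a6* gave −1.78 for *Ddc*, 0.18 for *Slc18a2* and 0.52 for *Drd2*. Scaling by the median of ratios shifted every log2 ratio by 0.066.

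The share of neurons with a UMI depended on depth. Thinned to 5000 UMIs, it was 5.36% in Control and 5.38% in SC300 for *Th*, 17.96% and 11.3% for *Ddc*, 5.09% and 3.97% for *Slc18a2*, 2.95% and 4.25% for *Gch1*, 3.49% and 1.98% for *Drd2*, and 1.34% and 0.283% for *Slc6a3*. At 2000 UMIs it was 4.21% and 3.61%, 10.5% and 4.44%, 2.37% and 2.50%, 1.58% and 1.11%, 1.58% and 0.833%, and 1.32% and 0.278% in the same order. With at least 2 UMIs required it was 20.8% and 14.96% for *Ddc*, 5.00% and 4.71% for *Gch1*, 3.16% and 2.22% for *Drd2*, and 6.58% and 4.43% for *Slc18a2*. The share of *Ddc* was 42.8% in Control and 32.1% in SC300 among neurons with at most 20% mitochondrial UMIs. Among *Th* neurons, *Slc18a2* was found in 55.6% in Control and 25% in SC300 when at least 5 *Th* UMIs were required, and *Slc6a3* in 0 of 9 in SC300 after thinning (0%, which allows up to 33.3%).

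Genes over 1.5-fold lower numbered 484 with at least 100 UMIs and 1281 with at least 20, against 763, and 325 were over 2-fold lower. Genes over 1.5-fold higher numbered 190 and 492, against 293, and 126 were over 2-fold higher. No value turned its direction among those past 1.5-fold. *Slc6a3* and the sets of *Th* neurons rest on counts of a few cells, and differences between rats cannot be told apart from those between groups.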

Other observations

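*Gch1* differed between kinds of neuron in a way its total did not show. Neurons with at least 20 *Pdyn* UMIs, 10 in Control and 25 in SC300, held 3 and 30 *Gch1* UMIs (4.77 and 16.6 CPM), and neurons with at least 20 *Agrp* UMIs held 16 and 17 (27.2 and 43.0 CPM). The SC300 *Pdyn* neurons include neurons with *Th*, *Ddc* and a transporter. Those with 25, 22 and 20 *Pdyn* UMIs held 9, 4 and 3 of the 30 *Gch1* UMIs, so the SC300 value rests largely on them. In neurons with *Slc17a6* and no *Slc32a1*, *Gch1* was 8.23 CPM (5.70 to 11.5) in Control and 3.46 CPM (2.05 to 5.46) in SC300. The Control value came from 34 UMIs in 13 neurons, 1 of which held 19, so it rests largely on that neuron. The SC300 value came from 18 UMIs in 14 neurons. In neurons with *Slc32a1* and no *Slc17a6*, *Gch1* was 8.88 CPM (6.71 to 11.5) and 11.6 CPM (8.97 to 14.9). These groups of neurons were chosen after their values were seen.

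A single Control neuron with *Slc6a3* and no *Th* held 5 *Slc6a3* UMIs and belonged to the neurons with *Slc17a6* and no *Slc32a1*. It also held *Ddc* and *Slc18a2*.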
